A study of Zea mays with 28 samples.

Results

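Gene expression was compared between the fourth leaf of maize plants wounded 24 h before harvest and the fourth leaf of control plants, by the 8 leaves labelled wounded at 24 h (4 leaves) or non-infested (4 leaves) out of 28 leaves in the series. All plants were of the inbred line B73 and were 22 days old, and every leaf, controls included, carried wax barriers that enclosed the leaf segment later harvested. Wounded leaves were abraded on both sides with 60 grit sandpaper, control leaves received the barriers alone, and each replicate was the segment of 1 leaf from its own plant. The other groups, each of 4 leaves, were wounded 2 h before harvest or infested with mites for 2 or 24 h. The mites were the generalist two-spotted spider mite Tetranychus urticae or the grass specialist Oligonychus pratensis, with 400 mites per leaf at 2 h and 200 at 24 h. Wounding was a single injury at the start of the treatment, whereas mite feeding was continuous. Treatment starts were staggered for a single joint harvest, so the controls have the harvest time of both wounding groups. Poly(A)-selected RNA was sequenced and reads were counted per gene for 39625 genes. Of these, 22339 had enough reads to be tested. Levels are given as CPM (read counts relative to the size of their library, scaled by trimmed mean of M values, TMM) and changes as log2 fold change ± standard error.

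A mechanical wound to a leaf is known to set off a fast wave of jasmonate synthesis and signalling, in which lipoxygenases, allene oxide synthase, allene oxide cyclase and oxo-phytodienoate reductases make the hormone and TIFY (jasmonate ZIM-domain) proteins restrain its response. Maize leaves also carry benzoxazinoids, indole-derived defence compounds, and make proteinase inhibitors and volatile terpenes when attacked. Pathogenesis-related (PR) proteins such as chitinases and glucanases, and the enzymes that build cellulose, lignin and the wall, are known as later or more lasting parts of the response to tissue damage. A bulk leaf sample cannot tell a change in the share of a cell type from a change in RNA per cell.

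The control libraries held 24675890 to 29950702 counted reads and the 24 h wounded libraries 29148222 to 32891100, within a range of 14721310 to 32891100 over all 28. The TMM factors of control libraries were 0.899 to 0.984 and those of the 24 h wounded libraries 1.022 to 1.086, so they did not overlap. Leaf identity matched its markers: the summed level of 8 mesophyll genes was 69845 to 88439 CPM in control leaves and 55713 to 61477 CPM in wounded leaves, and that of 4 bundle sheath genes was 13438 to 17204 and 10627 to 12166 CPM. Only 2 of 8 listed meristem genes were expressed enough to be tested, at 69.8 to 78.5 CPM in sum in control leaves and 64.4 to 73.1 CPM in wounded leaves. Of 30 listed seed and pollen genes 1 was tested, and that one, GLB1, carries Hb (haemoglobin) among its names rather than a seed storage name. On a principal component analysis of control and wounded leaves the first component (68.7% of the variance) set the 2 h wounded leaves apart, and the second (17.7%) separated the 24 h wounded leaves, at -66.53 to -50.07, from the controls. Control leaf 2, at 24.5, lay nearer to the wounded leaves than the other controls did, at 46.65 to 68.2. It was the highest of the 4 controls for 45.7% of the genes called higher after wounding and the lowest for 65.7% of those called lower, and the reason for its position was not tested.

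After 24 h, 1924 of 22339 genes (8.61%) differed from control with an adjusted p no greater than 0.01 and a log2 fold change of 1 or more in size (edgeR's quasi-likelihood test with Benjamini-Hochberg adjustment). Of these, 1743 (7.8% of the genes tested) were upregulated and 181 (0.81%) downregulated, so that 90.6% of the differentially expressed genes (DEGs) were higher in wounded leaves. The median log2 fold change was 2.05 for upregulated genes, -1.34 for downregulated genes and 0.00 for all genes. A log2 fold change of at least 3 was reached by 440 upregulated genes and an equal fall by 6. The 4 wounded leaves lay above all 4 control leaves for 1706 of the 1743 upregulated genes, and below them for 161 of the 181 downregulated genes. Over all genes tested, the leaves were separated in that way for 16.3% upward and 12.4% downward. Without control leaf 2, the counts were 1870 genes higher and 322 lower.

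**Figure D1:**
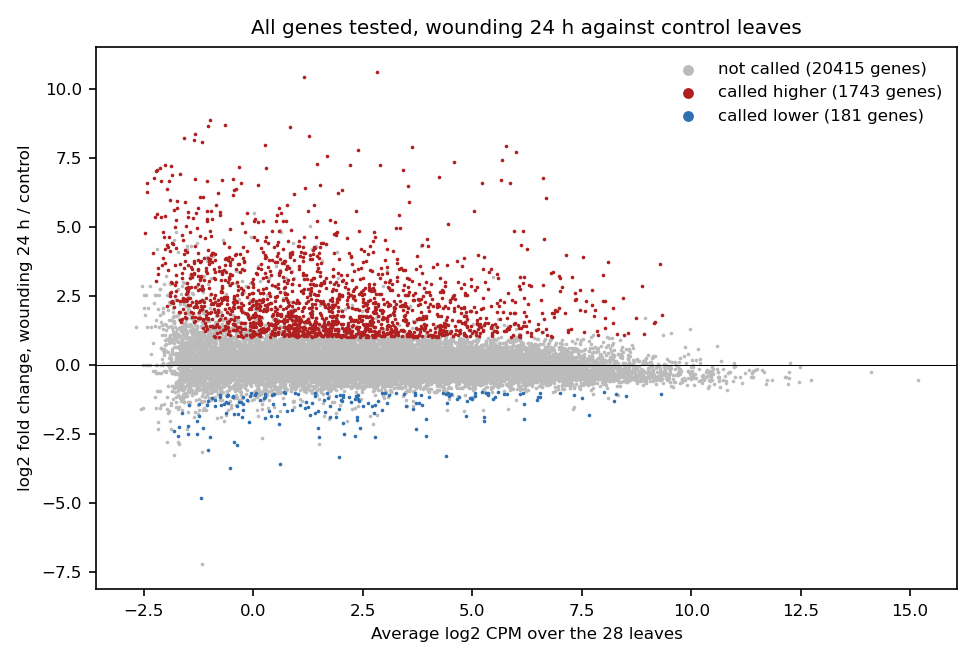
Each point is 1 of the 22339 genes tested, with its average log2 CPM over the 28 leaves on the horizontal axis and the log2 fold change of 24 h wounded against control leaves on the vertical axis. Red points (1743 genes called higher) lie far above 0 at low and high levels, whereas most of the 181 blue points (called lower) lie close under the threshold of -1; values of genes without a read in control leaves are fitted and are not bounds.

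The summed level of the upregulated genes was 5652 to 8680 CPM in control leaves, 23217 to 27446 CPM in the 24 h wounded leaves and 47640 to 62842 CPM in the 2 h wounded leaves. Over all genes tested the sums were 1015819 to 1112769, 921125 to 978646 and 1030882 to 1101139 CPM in the same order. The sums of the upregulated genes did not overlap between groups, a separation that for the first pair of groups the choice of genes fixes. Across the 40 gene lists, 118 of 517 tested members were called, beside 8.61% of all genes. The lists were chosen with earlier results of these data known. The lists of 4 circadian clock genes and 2 tested D-type cyclin genes had 0 calls and are not described further. Among the upregulated genes, 52 had no read in any control leaf and 98 had 1 to 3 reads in the 4 controls together.

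Several of the largest rises were those of genes for PR proteins. All 8 chitinase and PR genes tested were upregulated, with a median log2 fold change of 5.01. The chitinase gene chiA (GRMZM2G051943), of a family of enzymes that cut chitin, had 0, 0.0342, 0 and 0 CPM in the 4 control leaves and 16.3, 20.2, 29.8 and 26.4 CPM in the 4 wounded leaves. The single control read was in leaf 2. The ratio of wounded to control leaves was 2384 (95% exact interval 428 to 94210, counting error only; edgeR adjusted p = 5.7e-15).

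PR10 (GRMZM2G112524), a small intracellular pathogenesis-related protein, was at 0.265, 1.27, 1.08 and 0.619 CPM in control leaves and at 178, 198, 234 and 194 CPM in wounded leaves. The groups were far apart, and the log2 fold change was 7.93 ± 0.31 (edgeR adjusted p = 5.5e-16). Its neighbour in the name table, GRMZM2G112538, was at 0.758, 1.3, 0.625 and 1.24 CPM in control leaves against 153, 172, 191 and 172 CPM in wounded leaves, a change of 7.44 ± 0.23. A gene with a close identifier, GRMZM2G112488, stood at 0.152 to 0.619 CPM in control leaves and 58.4 to 77.5 CPM in wounded leaves (7.33 ± 0.36). Only uniquely aligned reads were counted, so the split of reads among close copies of such genes is uncertain.

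The chitinase gene chiB (GRMZM2G005633) was at 0, 0.0684, 0.125 and 0.0442 CPM in control leaves and 10, 10.6, 16.2 and 11.2 CPM in wounded leaves (7.56 ± 0.42). The pr6 gene (GRMZM2G065585), also named geb1 and listed among the PR proteins, rose from 2.08, 1.13, 0.5 and 0.53 CPM to 116, 124, 143 and 97.8 CPM, a log2 fold change of 6.79 ± 0.41 (edgeR adjusted p = 2.9e-12). In each of these genes every wounded leaf exceeded every control leaf many times over. The other members were chiI (3.24 ± 0.32), which the study's text had singled out, and PR-1, chn1 and PR-5, named here after their values were seen, with log2 fold changes of 2.85, 2.35 and 1.70. The PR-5 gene had wide controls, from 28.1 to 160 CPM, against 215 to 309 CPM in wounded leaves. The other chitinase genes of the study's text, GRMZM2G162359 and GRMZM2G129189, rose by 3.91 ± 0.35 and 1.92 ± 0.25 on the log2 scale.

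Beyond the PR genes, the largest rises by the naming rule included genes with no read in any control leaf. GRMZM2G004106, which the study's supplementary annotation pairs with an Arabidopsis plantacyanin, a small copper protein, reached 8.31, 9.41, 4.34 and 5.25 CPM in wounded leaves. It was at least 230-fold higher than the level of 3 reads over the 4 control libraries. GRMZM2G056469, GRMZM2G041699 and GRMZM2G114918 were likewise unread in control leaves and were at least 36.4-fold, 26.1-fold and 25.3-fold higher in wounded leaves. The gene AC198725.4_FG009, paired in the same annotation with Arabidopsis WRKY28, a transcription factor, had 0, 0.0684, 0 and 0 CPM in control leaves and 5.42, 5.11, 6.84 and 5.98 CPM in wounded leaves. Its level 2 h after wounding was higher still, at 60.1 CPM on average. GRMZM2G116520 and GRMZM2G050450, unnamed in the table, rose by 7.70 ± 0.45 and 6.82 ± 0.30 to means of 73.6 and 41.1 CPM. The remaining genes of that group, GRMZM2G094328, GRMZM2G093125 and GRMZM2G070304, had 1 or 2 reads in the controls together and ratios of 394 (109 to 3259), 226 (40.2 to 8939) and 203 (36.2 to 8064) to control.

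Genes that build the cell wall were higher in wounded leaves in most cases. Of 18 cellulose synthase and COBRA-type genes 12 were upregulated and 0 downregulated, with a median log2 fold change of 1.75 against 0.00 over all genes. The brittle stalk gene bk2 (GRMZM2G109326), a COBRA-like protein required for normal stalk walls in maize, was at 2.31, 6.91, 4 and 5.3 CPM in control leaves and at 51.4, 45.4, 60.7 and 65.9 CPM in wounded leaves. Each wounded leaf lay clear of the controls, and the log2 fold change was 3.59 ± 0.29 (edgeR adjusted p = 3.8e-10). The cellulose synthase genes CesA-8 (GRMZM2G177631) and CesA-2 (GRMZM2G027723) rose by 2.72 ± 0.22 and 2.43 ± 0.19, and the COBRA-like gene Bk2L3 by 2.07 ± 0.17. CesA12 (GRMZM2G142898) and CesA13, picked after their values were seen, were higher: CesA12 moved from 1.78, 3.9, 2.25 and 3.36 CPM to 29.9, 29.6, 50 and 52.1 CPM (3.83 ± 0.33), and CesA13 by 3.90 ± 0.37. The smallest called rise in the list was that of CesA-7, also picked after its values were seen, from a mean of 157 to 357 CPM (1.18).

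Genes of phenylpropanoid and lignin synthesis rose in the same leaves. Of 15 tested, 11 were upregulated and 0 downregulated (median 2.08). The cinnamoyl-CoA reductase gene ccr2 (GRMZM2G131836), whose enzyme commits phenylpropanoids to lignin precursors, was at 0.265, 1.2, 0.292 and 0.796 CPM in control leaves and at 15.3, 16.4, 21.5 and 15.9 CPM in wounded leaves (4.73 ± 0.41, edgeR adjusted p = 1.5e-09). Its wounded leaves were all above 15 CPM and its controls at or under 1.2 CPM. The caffeoyl-CoA O-methyltransferase genes ccoaomt1 and CCOAOMT2, which act in the methylation step toward lignin units, rose by 2.33 ± 0.19 and 2.10 ± 0.16, and the 4-coumarate:CoA ligase gene 4CL by 1.73 ± 0.19. PAL1, coding for phenylalanine ammonia-lyase at the entry of the pathway and named after its values were seen, rose by 1.54 ± 0.30 from 21.4 to 69.7 CPM in control leaves to 124 to 148 CPM in wounded leaves.

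Tubulins, the subunits of the microtubules that guide cellulose synthase in the wall, also moved upward, in 6 of 10 genes tested with 0 downregulated (median 1.17). TUBB6 (GRMZM2G071790) was at 1.7, 3.62, 0.75 and 2.25 CPM in control leaves and 28.2, 23.7, 32.9 and 31.9 CPM in wounded leaves (3.79 ± 0.31). TUBB5 (GRMZM2G133802) was at 14.9, 23.5, 8.42 and 15.6 CPM and then at 109, 92.8, 123 and 116 CPM (2.82 ± 0.24). TUBA4 (GRMZM2G152466) went from 100, 163, 80.6 and 110 CPM to 424, 367, 491 and 460 CPM (1.94 ± 0.16). For all of these the lowest wounded leaf exceeded the highest control leaf. TUBA5 rose by 1.64 ± 0.22. The tubulin count was between 4 and 7 with any single control or wounded leaf left out.

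Of 11 wall-loosening and cellulase genes, 7 were upregulated and 0 downregulated (median 1.90), among them the endoglucanase genes Cel3 (3.55 ± 0.26), Cel26 (2.99 ± 0.27) and Cel24A (2.03 ± 0.24) and the xyloglucan endotransglucosylase gene xth1 (2.97 ± 0.23). The kinesin gene krp6 (GRMZM2G114861), whose product moves along microtubules, was at 2.24, 5.2, 2 and 3.01 CPM in control leaves and at 79.5, 79.6, 121 and 151 CPM in wounded leaves. Wounded leaves 3 and 4 were the higher pair, and the log2 fold change was 5.10 ± 0.32 (edgeR adjusted p = 6.3e-12). Of 13 mitosis genes tested it was the 1 called, where 7.8% of all genes were called higher.

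**Figure D2:**
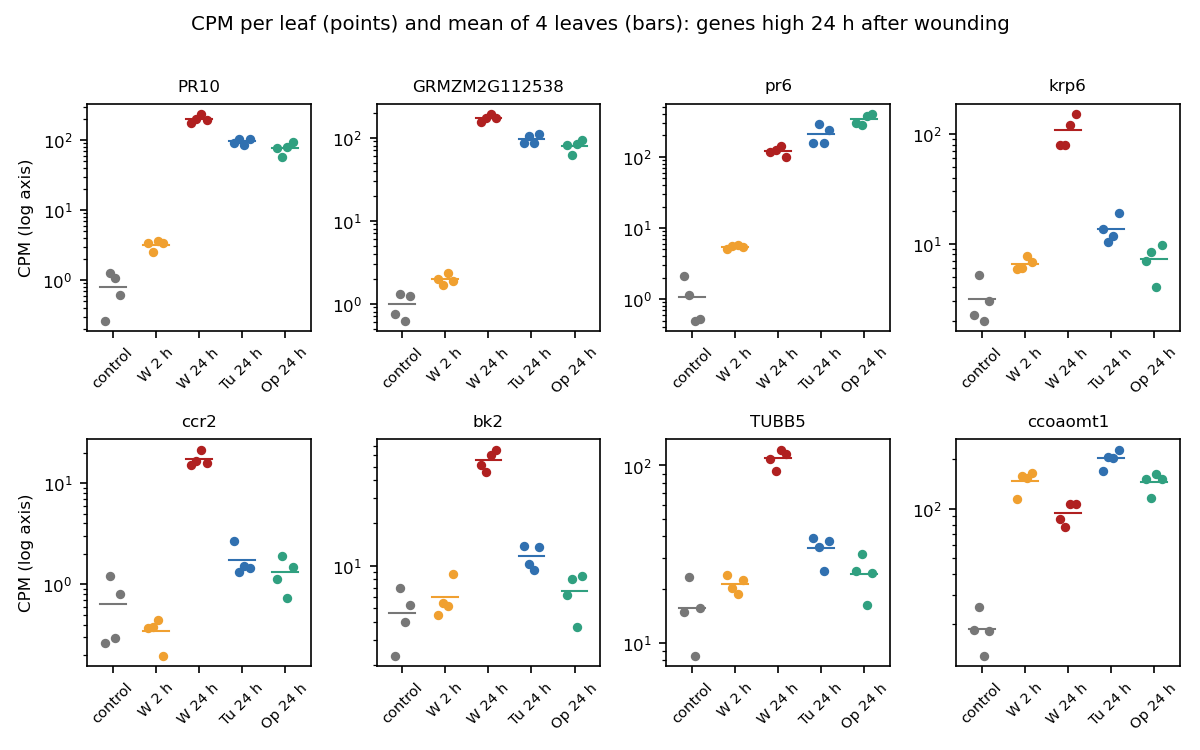
Each panel shows 1 gene, with the CPM of each leaf as a point (log axis) and the mean of 4 leaves as a bar. Groups are control leaves, leaves wounded (W) 2 or 24 h before harvest, and leaves infested with T. urticae (Tu) or O. pratensis (Op) for 24 h. In krp6, ccr2, bk2 and TUBB5 the 24 h wounded leaves stand above all other groups, while pr6 was higher on average in both mite groups (210 and 339 CPM) than in wounded leaves (120 CPM).

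Most jasmonate genes were not called against control at 24 h, where 7.8% of all genes were called higher and 0.81% lower. Of 18 synthesis genes tested, 3 were upregulated and 0 downregulated after 24 h, with a median log2 fold change of 0.00 (1 downregulated without wounded leaf 2), and 6 tested 9-lipoxygenase genes gave 0 calls by edgeR, 1 upward and 1 downward at an unadjusted p under 0.05, and 1 upward call by DESeq2. The 3 genes were aos1 (GRMZM2G067225), an allene oxide synthase, and opr1 (GRMZM2G106303) and opr2 (GRMZM2G000236), listed by name as oxo-phytodienoate reductases. The study's text assigns the reductase step of jasmonate synthesis in maize to OPR7 and OPR8. Whether opr1 and opr2 act in that step was not tested. The aos1 gene was at 2.58, 1.44, 1.46 and 2.48 CPM in control leaves, 911, 1233, 1233 and 1058 CPM in 2 h wounded leaves and 18.5, 16.3, 24.7 and 16.2 CPM in 24 h wounded leaves. It was above control at 24 h by 3.26 ± 0.35 and below its own 2 h level by -5.87 ± 0.35 (edgeR adjusted p = 1.0e-13). The opr1 and opr2 genes lay 4.36 ± 0.37 and 4.20 ± 0.33 above control and -4.07 ± 0.31 and -4.48 ± 0.28 below 2 h. The lipoxygenase gene LOX8, named after its values were seen, had a mean of 42.6 CPM in control, 389 CPM at 2 h and 40 CPM at 24 h.

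The TIFY genes gave 2 upregulated and 0 downregulated of 21 tested (median 0.06), a count near the 7.8% of all genes called higher. TIFY2 (GRMZM5G838098) was at 2.2, 1.95, 2.21 and 2.3 CPM in control leaves, 196, 303, 249 and 238 CPM at 2 h and 5.98, 5.31, 7.15 and 4.27 CPM at 24 h. Its 24 h leaves were above all controls (1.40 ± 0.28) and far below all 2 h leaves (-5.44 ± 0.28). TIFY1 was 2.55 ± 0.59 above control and -6.35 ± 0.29 below 2 h.

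The leaves wounded 2 h before harvest give a time comparison without control leaves, and it was tested directly. Between 24 and 2 h, 5603 genes (25.1%) differed, 2319 (10.4%) being higher and 3284 (14.7%) lower at 24 h. Of the 1743 genes upregulated against control at 24 h, 706 (40.5%) were higher at 24 h than at 2 h, 491 (28.2%) lower, and 546 (31.3%) were not called. Of the 181 downregulated genes, 37 were lower at 24 h than at 2 h, 15 higher and 129 not called. The time comparison shares the 24 h leaves with the comparison against control, so a gene high in those leaves is favoured in both.

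The lists differed in their counts by time. In the jasmonate synthesis list 13 of 18 genes were lower at 24 h than at 2 h and 0 higher, and in the TIFY list 17 of 21 were lower and 0 higher. Against control, 2 h wounded leaves had 12 jasmonate genes up and 1 down and 17 TIFY genes up and 0 down, where 17% of all genes were called higher and 8.47% lower. The chitinase and PR list had 6 of 8 genes higher at 24 h than at 2 h and 1 lower (chiI, -2.42 ± 0.30), the cellulose synthase and COBRA list 9 of 18 higher and 1 lower, the phenylpropanoid and lignin list 6 of 15 higher and 1 lower (4CL, -1.07 ± 0.18), and the tubulins 6 of 10 higher and 0 lower. The wall-loosening and cellulase list was split, with 4 of 11 genes higher at 24 h, 3 lower and a median of -0.70. All 3 chitinase genes of the study's text were lower at 24 h than at 2 h, GRMZM2G162359 by -1.82 ± 0.28 and GRMZM2G129189 by -4.47 ± 0.22 beside chiI. For PR10 the 2 h leaves held 3.36, 2.56, 3.59 and 3.35 CPM, which put the 24 h leaves 5.96 ± 0.27 above them. For bk2 the 2 h leaves held 4.47, 5.46, 5.17 and 8.75 CPM, and 24 h leaves were 3.23 ± 0.28 higher. PR10 was already above control at 2 h (1.97 ± 0.31, edgeR adjusted p = 5.2e-06), with its 2 h leaves above all controls, whereas bk2 was not called at 2 h (0.36).

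Defence genes with other roles were also far below their 2 h levels in several cases. The terpene synthase gene tps10 (GRMZM2G179092), which makes sesquiterpene volatiles in maize, was at 0.417, 0.376, 0.833 and 0.398 CPM in control leaves, 1015, 1464, 1557 and 1809 CPM at 2 h and 9.98, 4.43, 6.61 and 4.39 CPM at 24 h. The 24 h leaves were still above control (3.65 ± 0.56, edgeR adjusted p = 1.5e-05) but -7.84 ± 0.52 below the 2 h leaves. Of 8 volatile synthesis genes tested it was the 1 called, where 7.8% of all genes were called higher.

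Of 12 benzoxazinoid genes tested, 2 were upregulated at 24 h and 0 downregulated (median 0.42), where 7.8% of all genes were called higher. Of the 12, 8 were lower at 24 h than at 2 h, where 14.7% of all genes were. The upregulated genes were BX10 (GRMZM2G311036) and BX11 (GRMZM2G336824), methyltransferases that act on the finished glucoside. BX10 was at 0.0758, 0.171, 0.125 and 0.0442 CPM in control leaves, 148, 174, 248 and 229 CPM at 2 h and 1.08, 0.426, 1.9 and 0.632 CPM at 24 h. At 24 h it lay 3.20 ± 0.79 above control and -7.60 ± 0.45 below 2 h, and BX11 lay 2.98 ± 0.67 above and -7.46 ± 0.40 below. The call of BX10 against control was lost without control leaf 1, 3 or 4 or wounded leaf 3, which left 1 gene of the list called, while without wounded leaf 4 the list had 3, and DESeq2 without its prior called 4. The core genes stayed near control: BX1, the indole-producing first step, had 7.8, 10.1, 3.63 and 10.7 CPM in control leaves and 2.98, 20.8, 15 and 8.19 CPM in wounded leaves (0.53 ± 0.70), with overlapping groups. BX2, BX3, BX4, BX5, BX6, BX8 and BX9 had log2 fold changes of 0.31, -0.05, -0.31, -0.13, 0.95, -0.46 and 0.22, of which that of BX6 passed the adjusted p (1.6e-05) but not the fold change and that of BX8 likewise (0.009). BX13 and BX14 had no read in control leaves and were at 0.031 to 0.431 and 0.0287 to 0.537 CPM in wounded leaves, where BX14 rested on 1 leaf. Their ratios to 3 control reads were at least 7.39 and 5.28, with edgeR adjusted p of 0.019 and 0.059.

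Proteinase inhibitors gave 3 upregulated genes of 10 tested, with 0 downregulated. The wound-induced Bowman-Birk type gene wip1 (GRMZM2G156632) was at 0, 0.274, 0.208 and 0.0442 CPM in control leaves and 8.37, 13.1, 19.2 and 13.2 CPM in wounded leaves (6.58 ± 0.45). The 2 h leaves, at 11.3, 14.2, 26.9 and 24.5 CPM, overlapped those of 24 h (-0.51 ± 0.26, edgeR adjusted p = 0.088). The maize proteinase inhibitor gene MPI rose from 18.1, 34.8, 12.2 and 23.3 CPM to 69.9, 126, 134 and 111 CPM (2.32 ± 0.27), and the cystatin-type gene cc7 by 1.40 ± 0.29. Glutathione S-transferases, which conjugate reactive compounds, gave 8 upregulated and 1 downregulated of 26 tested (median 0.57), led by gst42 (4.29 ± 0.32), gst2 (2.74 ± 0.32), gst7 (2.00 ± 0.26) and gst19 (1.48 ± 0.23). The count was 6 to 10 higher and 1 to 3 lower with any single leaf left out, the 3 being without control leaf 2. The gst7 gene stood at 694 CPM on average at 2 h and at 41.8 CPM at 24 h, against 10.5 CPM in control.

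**Figure D3:**
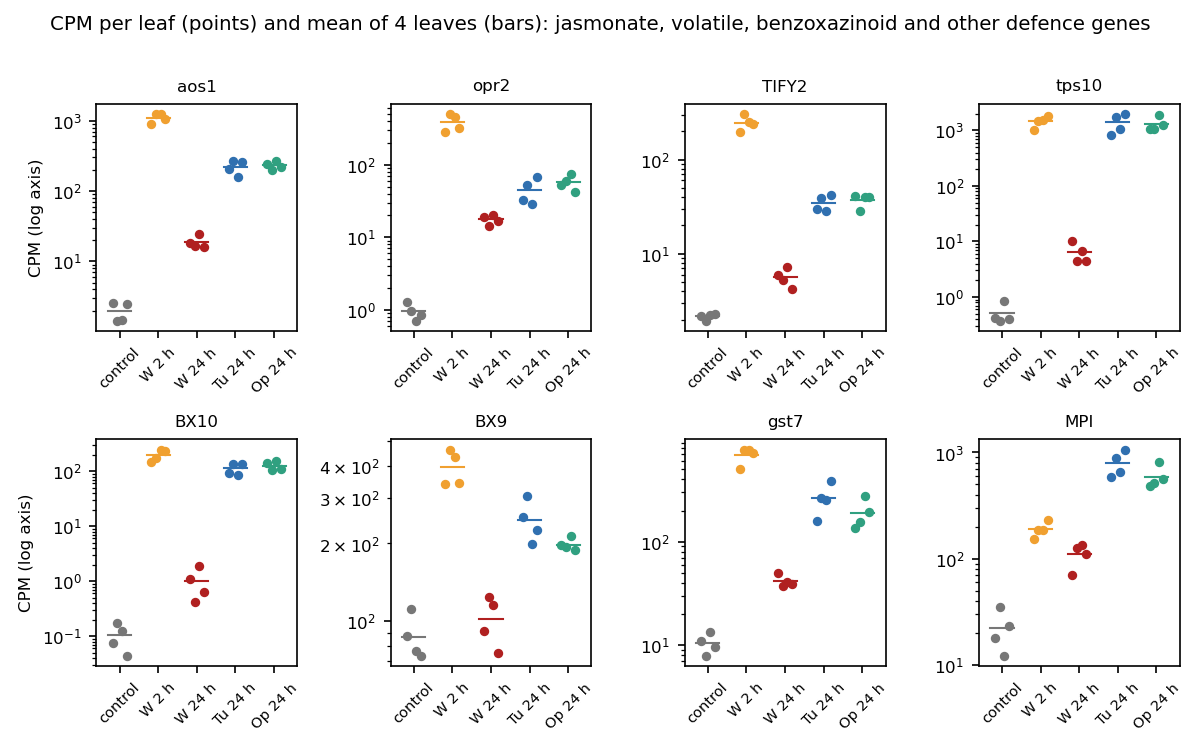
Each panel shows 1 gene, with the CPM of each leaf as a point (log axis) and the mean of 4 leaves as a bar, in the same 5 groups. In aos1, opr2, TIFY2, BX10 and gst7 the 2 h wounded leaves are the highest on average and the 24 h wounded leaves lie between control and 2 h, and for tps10 both mite groups at 24 h (means of 1392 and 1320 CPM) lie near the 2 h wounded leaves (1461 CPM).

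Heat shock genes showed 8 upregulated and 0 downregulated of 21 tested (median 0.79). The small heat shock gene hsp22 rose from 0.379, 0.376, 0.333 and 0.0884 CPM to 4.28, 4, 7.15 and 4.71 CPM (4.04 ± 0.38), hsp101 by 4.02 ± 0.53 and the chaperone gene Hsp70 by 2.70 ± 0.37. Wounded leaf 3 was the highest of the 4 in each of these 3 genes. The count of 8 ranged from 6 to 10 when single leaves were left out. Protein folding genes of the endoplasmic reticulum gave 2 calls of 19 (PDIL1-5, 1.60 ± 0.19, and PDIL1-2, 1.42 ± 0.19), and their median was 0.42. Of the 19 log2 fold changes 18 were positive, and at an unadjusted p under 0.05 the edgeR counts were 15 upward and 0 downward. With no fold change threshold 9 were called higher and 0 lower.

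Most genes of the DNA replication and histone lists were not called. In the main fit the shares called were above the 7.8% of all genes called higher, a difference that was not tested. DNA replication genes had 3 calls of 14, RNRS3 (2.97 ± 0.67), MCM6 (2.30 ± 0.42) and MCM7 (2.06 ± 0.47), and histones 3 of 10, H4C13 (2.84 ± 0.51), his2b2 (2.10 ± 0.41) and hon110 (1.33 ± 0.24). Their highest leaf was below 4 CPM except for hon110, a linker histone gene with 65.3 to 89.4 CPM in wounded leaves. With single leaves left out, each list had 3 or 4 calls. The fit of the 8 leaves alone called 1 DNA replication gene and 2 histones, and a test against a fold change of 2 called 0 and 1. The ribosomal protein list gave 1 call of 35 (median 0.37), but 33 of its log2 fold changes were positive. At an unadjusted p under 0.05 its edgeR counts were 21 upward and 0 downward. Over all 22339 genes tested, 11272 were positive, and those edgeR counts were 5203 upward and 4573 downward. The called gene was GRMZM2G088005, listed under RPL10 beside a second gene model, with 0, 0.0342, 0 and 0 CPM in control leaves. It reached 0.393 to 1.06 CPM in wounded leaves, a ratio of 68.1 to control (11.9 to 2719).

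Photosynthesis genes gave few calls in number, where 7.8% of all genes were called higher and 0.81% lower. Of 12 light harvesting and photosystem genes 0 were called in either direction by edgeR and by DESeq2 (median -0.21), and at an unadjusted p under 0.05 the edgeR counts were 0 upward and 3 downward. Of 15 genes of the C4 and Calvin cycles 3 were upregulated, the PEP carboxylase kinase genes PPCK2 (2.66 ± 0.34) and PPCK4 (2.52 ± 0.41) and a carbonic anhydrase-named gene, CA (1.23 ± 0.14), and 0 were downregulated by edgeR or DESeq2, with a list median of -0.25. Most of that list lay below control all the same: at an unadjusted p under 0.05 the edgeR counts were 3 upward and 8 downward, the wounded leaves lay below all controls for 6 of 15 genes, and 3 were lower by adjusted p with no fold change threshold. The summed level of the list was 85834 to 109206 CPM in control leaves and 68815 to 76154 CPM in wounded leaves, without overlap. The bundle sheath gene pck2 (GRMZM5G870932), a PEP carboxykinase, was at 539, 200, 393 and 432 CPM in control leaves and 108, 135, 127 and 74.6 CPM in wounded leaves. It fell by 1.81 on the log2 scale, and control leaf 2 was the lowest control. The summed mesophyll and bundle sheath levels given above were lower in wounded leaves too, and their part in these values was not tested.

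The downregulated genes were few and of moderate size. Those that fell most by the naming rule were GRMZM2G349791, from 16.7, 9.44, 6.38 and 3.36 CPM to 0.775, 0.721, 0.833 and 1.17 CPM (-3.36 ± 0.56, edgeR adjusted p = 4.8e-05), and GRMZM2G173710, from 104, 33.2, 35.3 and 25.5 CPM to 3.63, 5.28, 9.05 and 1.87 CPM (-3.32 ± 0.53). Control leaf 1 was the highest in both, and no wounded leaf reached a control leaf. MYBR115 (GRMZM2G049378), a MYB-related transcription factor gene, was at 14.9, 4.45, 23.4 and 12.8 CPM in control leaves and 3.38, 2.13, 1.98 and 1.45 CPM in wounded leaves (-2.63 ± 0.47). Control leaf 2 was its lowest control. GRMZM2G039246, which the supplementary annotation pairs with the Arabidopsis histidine phosphotransfer gene AHP4 of cytokinin signalling, changed by -2.00 ± 0.46, from 7.59 to 11.8 CPM down to 1.61 to 3.04 CPM. The other 11 genes with the largest falls had log2 fold changes of -2.61 to -1.95 and are unnamed in the table, or known only by a locus number.

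**Figure D4:**
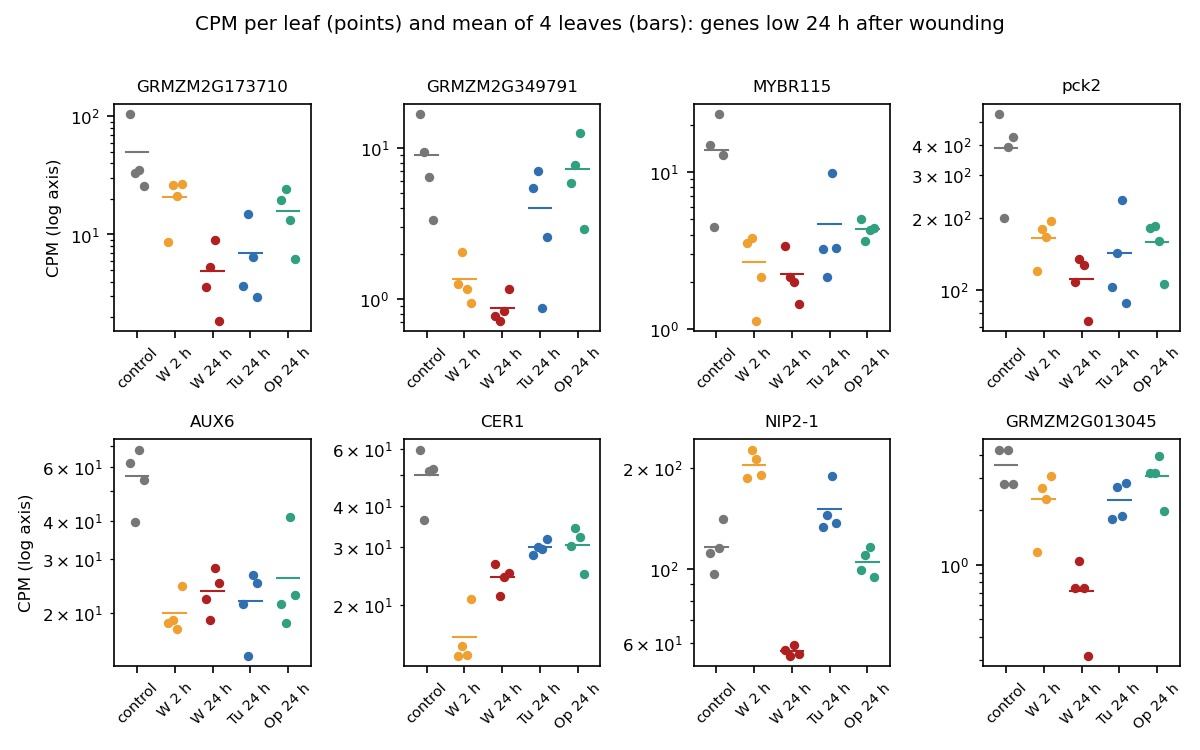
Each panel shows 1 gene called lower at 24 h after wounding, with the CPM of each leaf as a point (log axis) and the mean of 4 leaves as a bar, in the same 5 groups. In all 8 genes the 24 h wounded leaves lie under the 4 control leaves, and in MYBR115, pck2, AUX6, CER1 and NIP2-1 the second control point is the lowest control.

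Hormone and transport lists gave small counts in both directions, where 7.8% of all genes were called higher and 0.81% lower. Auxin response and transport genes had 3 upregulated and 4 downregulated of 39 tested (median -0.26). Among them AUX6 (GRMZM2G035465) fell from 61.7, 39.7, 68.4 and 54.6 CPM to 22.2, 19, 28.1 and 25.1 CPM (-1.25 ± 0.23), AUX36 changed by -1.46 ± 0.32 and the auxin carrier gene PIN5c by -1.92 ± 0.41, while the carrier gene PIN10a rose by 1.99 ± 0.26. In PIN5c control leaf 2 (0.616 CPM) lay among the wounded leaves. Without that leaf the list had 2 genes higher and 6 lower. Without control leaf 1 it had 1 higher and 3 lower, without control leaf 3 it had 1 and 4, and the fit of the 8 leaves alone gave 1 and 2 and lost the call of PIN5c. Of 20 aquaporins, PIP2-4 (2.36 ± 0.23), PIP2-6 (1.17 ± 0.18) and TIP1-2 (1.74 ± 0.45) were upregulated and NIP2-1, a relative of the rice silicon channel, was downregulated, from 111, 96.4, 115 and 141 CPM to 57, 54.8, 59.2 and 55.6 CPM (-1.03 ± 0.12). The wax gene CER1, of alkane synthesis in Arabidopsis, was the 1 called of 6 (-1.03 ± 0.17), and of 4 ethylene synthesis genes ACO20, an ACC oxidase gene, was (-1.32 ± 0.20). The call of CER1 was lost without control leaf 1, that of NIP2-1 without control leaf 4, and that of TIP1-2 without control leaf 1, 2 or 3 or wounded leaf 2 or 3.

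Over all genes tested, 7.8% were called higher at 24 h. In the transcription factor lists the calls were WRKY95 of 17 WRKY genes (2.09 ± 0.22) and NAC1 (1.77 ± 0.51) and NAC12 (1.43 ± 0.29) of 14 NAC genes. Of 27 AP2/ERF genes, EREB60 (3.61 ± 0.54), EREB34 (1.61 ± 0.22) and EREB1 (1.29 ± 0.29) were called. All of these calls were upward, and no difference from the share over all genes was tested. The call of NAC1 was lost in 6 of the 8 fits with 1 control or wounded leaf left out (control leaf 2, 3 or 4 and wounded leaf 1, 2 or 3) and with the replicate block, which left 1 NAC gene called. The WRKY count was 2 without wounded leaf 2. WRKY95 was at 47.3 CPM on average at 2 h, 3.41 CPM at 24 h and 0.791 CPM in control. NAC1 was at 41.6, 0.913 and 0.267 CPM in the same order. Both were lower at 24 h than at 2 h, by -3.79 ± 0.18 and -5.50 ± 0.34. Abscisic acid signalling gave 2 upregulated protein phosphatase genes of 36, PP2C13 (1.96 ± 0.51) and PP2C28 (1.30 ± 0.12). The call of PP2C13 was lost without control leaf 1 or 3 or wounded leaf 1 or 3. In that list 2 genes were called lower without control leaf 2 or 3 and 1 without wounded leaf 1, against 0 with all leaves.

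Further lists gave 1 or 2 rises and 0 falls each, where 7.8% of all genes were called higher. The calls were 1 of 14 antioxidant enzyme genes and 1 of 9 invertase, sucrose synthase and transporter genes. They were 1 of 9 senescence and cysteine protease genes, 2 of 3 peroxidase genes and the 1 tested seed and pollen gene. No difference from the share over all genes was tested. The alternative oxidase gene aox1 rose by 2.19 ± 0.24, the cell wall invertase gene incw1 by 1.06 ± 0.14, the cysteine protease gene mir2 by 1.03 ± 0.20, the peroxidase genes PER2 and PER42 by 3.65 ± 0.50 and 1.29 ± 0.14, and the haemoglobin-named gene GLB1 by 2.53 ± 0.43. The call of incw1 was lost without control leaf 3 or 4 or wounded leaf 3, and that of mir2 without control leaf 3 or wounded leaf 2 and by DESeq2 with its prior. Of the 5 genes that the study's text placed on salicylate routes, GRMZM2G063917 (2.10 ± 0.21), GRMZM2G010468 (1.40 ± 0.32) and GRMZM2G125923 (from 0.486 to 0.855 CPM up to 2.94 to 5.2 CPM) were upregulated, whereas GRMZM2G147245 (1.24 ± 0.45, edgeR adjusted p = 0.034) and GRMZM2G437912 (0.27 ± 0.20) were not called. The study chose these genes and its chitinases on these samples, so their direction is not independent evidence. The call of GRMZM2G010468 was lost without control leaf 1 or wounded leaf 1 and in the fit of the 8 leaves alone.

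**Figure D5:**
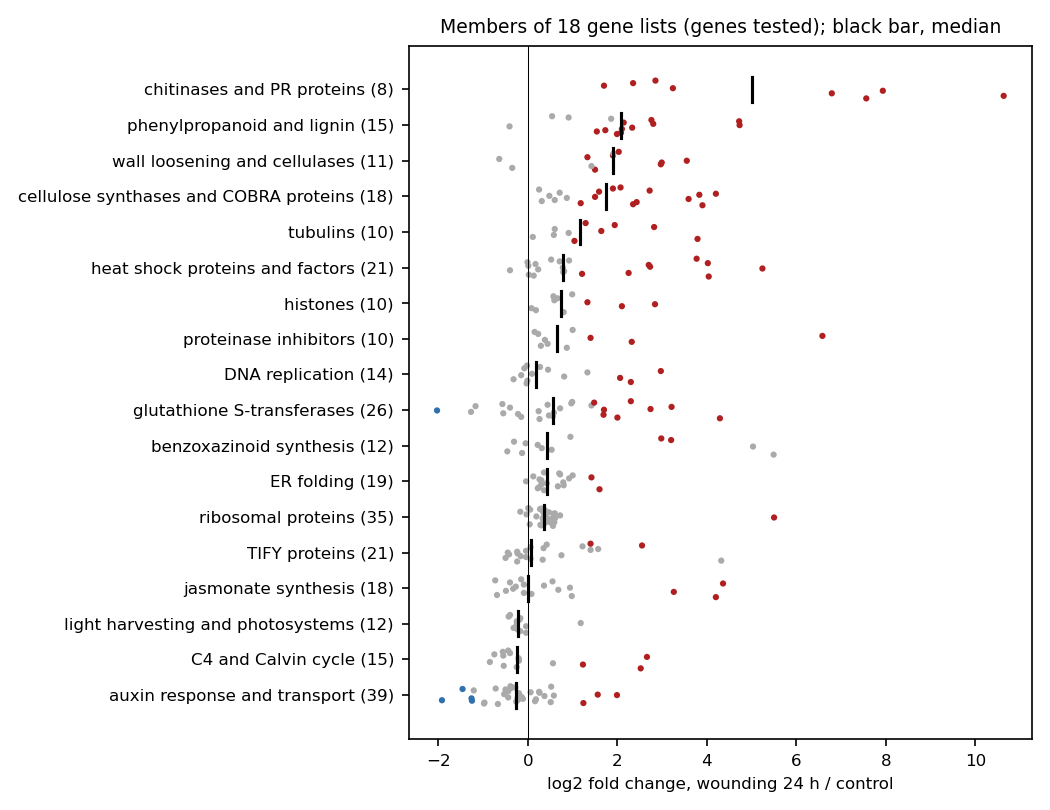
Each point is 1 tested gene of 1 of 18 lists, placed by its log2 fold change at 24 h (red, called higher; blue, called lower; grey, not called), and the black bar is the list median. The medians run from 5.01 for chitinases and PR proteins, through 2.08, 1.90, 1.75 and 1.17 for the lignin, loosening, cellulose and tubulin lists, to -0.25 for the C4 and Calvin cycle and -0.26 for auxin; the grey points beyond 5 in the benzoxazinoid row are fitted values of BX13 and BX14, which had no control read.

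Leaves under mite attack for 24 h were harvested at the same time and give a comparison with another form of damage. Wounding was a single injury 24 h before harvest, whereas mite feeding was continuous. Form of damage and time since damage therefore cannot be told apart in this comparison. Against the mean of both mite groups, 2660 genes (11.9%) differed, 797 (3.57%) higher and 1863 (8.34%) lower in wounded leaves. Of the 1743 upregulated genes, 443 (25.4%) were higher in wounded than in infested leaves, 335 (19.2%) lower and 965 not called. Of the 181 downregulated genes 0 were higher, 38 lower and 143 not called. Here too the 24 h wounded leaves are shared with the comparison against control. The extent of damage in the groups was not analysed here.

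Several wall and microtubule lists had members higher after wounding than after mites: 6 of 18 cellulose synthase and COBRA genes, 6 of 15 lignin genes and 5 of 10 tubulin genes were higher and 0 were lower. The wall-loosening and cellulase list did not share this, with 2 of 11 higher (xth1 among them, 1.47 ± 0.17), 3 lower (among them Cel3, -1.14 ± 0.18) and a median of 0.04. The mite mean joins unlike groups. Against control, 24 h T. urticae leaves had 13 of the 18 cellulose synthase and COBRA genes called higher (median 1.27), beside 12 after wounding. O. pratensis leaves had 3 (median 0.57). Of the 15 lignin genes T. urticae had 7 and O. pratensis 4 higher against control, and of the 10 tubulins 3 and 2. The kinesin gene krp6 was at 13.5, 10.3, 11.8 and 18.9 CPM under T. urticae and 6.9, 8.47, 4.05 and 9.71 CPM under O. pratensis, which put wounded leaves 3.43 ± 0.22 higher (edgeR adjusted p = 6.2e-12). For bk2 the infested leaves held 9.33 to 13.7 and 3.66 to 8.4 CPM, and wounded leaves were 2.67 ± 0.21 higher. For ccr2 the infested leaves held 1.33 to 2.68 and 0.733 to 1.92 CPM (3.51 ± 0.29). No infested leaf reached a wounded leaf in any of these 3 genes. The unnamed gene GRMZM2G177242 showed the same order, with 48.3 CPM on average after wounding and 5.13 and 2.73 CPM under the mites (3.69 ± 0.30). GRMZM2G429955 was 3.72 ± 0.79 higher than under mites but not called against control (1.60 ± 0.90), with 8.49, 13.5, 77.6 and 25.5 CPM in the wounded leaves.

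Several defence lists ran the other way, where 8.34% of all genes were lower after wounding than after mites. Of 12 benzoxazinoid genes 11 were lower after wounding than after mites, as were 11 of 18 jasmonate synthesis and 13 of 21 TIFY genes, with 0 higher in each. Of 8 volatile synthesis genes 5 were lower and 0 higher, and the tps10 gene was -7.73 ± 0.50 from the mite groups. Most proteinase inhibitor genes did not share this: 2 of 10 were lower, 0 higher and 8 not called (median -0.45). The 2 genes were wip1 (-3.79 ± 0.26) and MPI (-2.65 ± 0.26). Of 3 peroxidase genes 0 were called. BX1 was at 69.3, 196, 150 and 113 CPM under T. urticae and 38.1, 211, 71.7 and 25 CPM under O. pratensis, so that wounded leaves were -3.19 ± 0.67 from the mite mean with no overlap. GRMZM2G124799 and GRMZM2G154523, genes without a name of known role in the table, differed most: GRMZM2G124799 had 337 and 338 CPM under the mites, 105 CPM 2 h after wounding and 0.121 CPM 24 h after wounding, and GRMZM2G154523 had 93, 114, 51.2 and 0.0149 CPM in the same order. The chitinase and PR list was divided. PR10 and chiB were higher after wounding (1.22 ± 0.17 and 1.79 ± 0.20), chiA (1.00 ± 0.17) lay just under the fold change threshold, and 5 of 8 were lower, among them pr6 (-1.15 ± 0.27) and chiI (-1.36 ± 0.26). The pr6 gene held 158, 286, 157 and 239 CPM under T. urticae and 301, 284, 377 and 395 CPM under O. pratensis, above all 4 wounded leaves.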

How the data were processed

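RNA was measured in 28 leaves, of which the 4 control and 4 wounding 24 h leaves form the main comparison. The deposited values are raw read counts per gene: the authors aligned stranded poly(A) reads with STAR 2.5.2b to B73 RefGen_v3 and counted uniquely aligned reads over whole transcripts with HTSeq 0.6.0, so intronic reads are included and reads of near-identical copies are lost or split. Every column of the count table matched a sample label. Gene symbols came from a RefSeq name table of a later B73 assembly, which was used for names and neighbours and for no coordinates.

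Counts were tested with edgeR 4.0.16 (R 4.3.3, limma 3.58.1): genes were filtered with filterByExpr (minimum count 10), scaled by TMM and fitted with 1 mean per condition over all 28 leaves, so that 22339 of 39625 genes shared the estimate of spread. Genes were called by the quasi-likelihood test with a Benjamini-Hochberg adjusted p no greater than 0.01 and a log2 fold change of 1 or more in size, the thresholds of the study. Genes without a read in a group were set against 3 reads over its 4 libraries together, and those with 1 to 3 reads got a ratio with an exact 95% binomial interval; intervals cover counting error only. The fit was tested on simulated data for 24 h wounded against control leaves with 22339 genes, without the TMM differences between groups. The changed genes had an average log2 CPM of at least 1, which 1012 of the 1743 upregulated genes reached. Changes in genes under that level were not simulated. Of 50 genes raised 4-fold, 50 were called, and of 50 lowered 4-fold, 49. Of 50 raised 2-fold, 44 passed the adjusted p and 17 the fold change as well. For 50 lowered 2-fold, these counts were 41 and 24. Of the unchanged genes, 0 were called and 1 passed the adjusted p.

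Named genes were the 15 largest rises and 15 largest falls with an average log2 CPM of at least 1 and separated groups, up to 4 called members of each of 40 lists by smallest p, the 4 largest differences each way in each of the comparisons with 2 h wounding and with both mites, and the genes that the study's text names by identifier, 130 in all. Members and lists were chosen with earlier results of these data known. Lists are described by counts and medians, without set tests. Replicates came from separate plants per the labels, and no pair of control or 24 h wounded libraries agreed within sampling noise (chi-square per degree of freedom of at least 12.1). The labels do not say that a replicate number marks a block. Same-numbered 24 h and 2 h wounded leaves deviated together (correlations of 0.10 to 0.30, every pair over 0.1), so they were treated as paired in the alternative fit with a replicate block. Alternatives were DESeq2 1.42.0, other scaling, filters, thresholds, sample sets, the block, and each leaf left out in turn. BX7 was not analysed here.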

Additional observations from a re-analysis of the deposited data

Results flagged for a closer look

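In 260 sets of 4 leaves, 2 for each of the 130 named genes, the gap between the highest or lowest leaf and its nearest neighbour was divided by the range of the 4. Values above Dixon's critical value mark a leaf far from the others, and chance gives about 1 in 20 sets. A value of 1 came from 1 leaf with 1 to 3 reads where the other 3 leaves had none: in control leaves for chiA, AC198725.4_FG009, GRMZM2G093125, GRMZM2G070304, RPL10 (GRMZM2G088005), TIFY10, GRMZM2G059693 and GRMZM2G075456, and in 24 h wounded leaves for GRMZM2G117627.

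Among control leaves with more reads, 1 leaf was high for tps10 (0.911, leaf 3), GLB1 (0.881, leaf 2), GRMZM2G063917 (0.959, leaf 2), PER42 (0.935, leaf 1) and GRMZM2G173710 (0.875, leaf 1), and 1 was low for hsp22 (0.843, leaf 4). Among 24 h wounded leaves, 1 leaf was high for BX14 (0.992, leaf 4), ccr2 (0.834, leaf 3), GRMZM2G147245 (0.846, leaf 3) and GRMZM2G059502 (0.934, leaf 3).

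The response to wounding differed between times by direct test for 5603 genes, and from that to both mites at 24 h for 2660 genes. Of the 130 named genes, 86 differed between 24 and 2 h, 36 of them higher and 50 lower at 24 h. The largest falls from 2 h by the naming rule were GRMZM2G154523, GRMZM2G117627, TIFY10 and GRMZM2G124799, with log2 differences of -11.30 ± 0.77, -10.24 ± 0.64, -9.72 ± 0.44 and -9.67 ± 0.62. These are fitted values and no bounds, since the 24 h leaves held from 0 to 0.23 CPM of these genes.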

How the results depend on the processing

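With the fold change threshold dropped, the calls rose to 4606 against control (2777 higher and 1829 lower, 60.3% higher in place of 90.6%), 11197 against 2 h, 7497 against both mites and 195 among list members. With glmTreat, which tests against a fold change of 2, they were 851 (834 higher and 17 lower), 3025, 1023 and 67. With 1 leaf left out they ranged over 1651 to 2192, 5273 to 5760, 2391 to 2880 and 106 to 132. Without control leaf 2 the downregulated genes numbered 322 in place of 181. The replicate block gave 1969, 5635 and 2699 calls in the 3 comparisons and moved none of them by 1.5 times. The block covered the leaves of all groups. Deviations of same-numbered leaves correlated with those of 24 h wounding at -0.17 to 0.19 for control, 0.04 to 0.25 for T. urticae and -0.09 to 0.31 for O. pratensis. For O. pratensis, as for 2 h wounding, 3 of the 24 h wounded leaves matched best with the leaf of their own number. DESeq2 without and with its prior called 2015 and 1934 genes against control, scaling by size factors 1919, the unfiltered counts 2009 and the fit of the 8 leaves alone 1616. No named gene called against control reversed its direction in any alternative run that held it. For the 19 named genes not called, only a call in the opposite direction was looked for, and no such call occurred. The fit of the 8 leaves alone held 119 of the 130 named genes. Of the 130 named genes, 38 were no longer past the threshold under glmTreat and 0 to 6 with 1 leaf left out. The cause of these differences was not tested beyond the construction of each alternative.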
